A study of Homo sapiens with 6 samples.

Results

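The genes described here encode factors that build ribosomes in the nucleolus, without the ribosomal proteins themselves. They were taken from the deposited expression table of AGS cells by its own annotation: genes in the KEGG pathway for ribosome biogenesis in eukaryotes, genes with the gene ontology terms rRNA processing or ribosome biogenesis, and GNL3 and NOP16 by name. Genes named as cytosolic or mitochondrial ribosomal proteins, and genes of the spliceosome pathway, were left out. This gave 38 of the 1099 genes of the table. AGS is an established human gastric adenocarcinoma line, labelled as wild type. It was treated for 24 h with vehicle (3 libraries) or with SSD, saikosaponin-D, a triterpenoid saponin from Bupleurum root (3 libraries), and polyadenylated RNA was sequenced. The sample labels give 10 μM SSD, whereas the methods of the study give a lower dose, and the protocol fields of the labels name another cell line and another compound, known by a code. The treated columns of the table are not named SSD: they carry a number from that code and the dose of the labels. They were assigned to the SSD samples because the series has 1 treated group and the replicate numbers match, so that every SSD value here rests on this assignment, and neither compound nor dose could be checked from the files. The methods speak in general of independent experiments, and neither they nor the labels say whether these libraries came from separate cultures. If they did not, the p-values measure the spread between these libraries only.

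A ribosome starts in the nucleolus, where RNA polymerase I transcribes a long precursor RNA. Small nucleolar ribonucleoproteins (snoRNPs) guide the methylation and pseudouridylation of this precursor, the small subunit processome folds and cuts the part for the small subunit, and a separate set of factors assembles the large subunit, before both are exported to the cytoplasm. Many of these factors are highly expressed in growing cells and are well-known transcriptional targets of Myc, whose activity the study examined.

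The deposited table is not a random part of the transcriptome. It holds the genes with the smallest p-values out of 11289 that the authors tested between the same libraries, so that ribosome biogenesis genes with larger p-values were not analysed here, and counts over the 38 genes describe this selection and not the whole pathway. Summed counts over the table ran from 3084337 to 4640114 per library, and the 38 genes had a mean of 455 to 6627 counts per library each, so that all passed the filter on low counts. Of the markers listed for gastric epithelium, 2 of 10 were in the table, and both were lower under SSD with no overlap. CDH17, an intestinal-type cadherin, was at 46.2 ± 1.89 TPM with vehicle and 36.1 ± 2.27 TPM with SSD (SD, n = 3 each), a log2 fold change of -0.35 (edgeR adjusted p = 0.00703, and 0.0473 on the TMM scale, another normalization). TFF1, a secreted trefoil peptide, was at 74.3 ± 6.28 and 46.5 ± 11.4 TPM (SD, n = 3 each), a log2 fold change of -0.76 (edgeR adjusted p = 0.0142, and 0.0435 on the TMM scale), which was lost without vehicle replicate 1 or vehicle replicate 2. The fall of TFF1 was larger than that of any of the 38 genes, and the part of these markers in the results was not tested. None of 8 prostate or 6 leukocyte markers was listed, and of 6 fibroblast markers COL1A1 was, at 10.0 to 15.8 TPM. Absence from a table of selected genes does not show that a gene was off. TPM, the unit of all levels given here, is a read share corrected for gene length, and a lower share in a bulk library cannot tell fewer expressing cells from less RNA per cell.

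All 38 genes had lower fitted expression under SSD than under vehicle, by 7.57% (WDR36) to 26.3% (NOP16), with a median log2 fold change of -0.21. The median over the whole table was -0.14, and 64.8% of its genes lay below 0. Of the 38, 11 were lower at an adjusted p under 0.05 and none was higher (edgeR's quasi-likelihood test, Benjamini-Hochberg adjustment over 11289 genes): GNL3, NOP16, LYAR, NOP56, GTPBP4, MRTO4, NOLC1, DKC1, PA2G4, WDR43 and BOP1. In the whole table, 19.5% of genes were lower and 33.8% higher by the same rule. Among the table genes with a log2 fold change below 0, 30.1% passed as lower. All 38 genes thus lay on one side of 0, and the share of them that passed was near that among all table genes below 0. The direction of each of the 38 was the same in all 16 other analyses made. None of the 38 fell by 1.5-fold or more.

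These counts depended on the scale between libraries and on single libraries. The scale used here was taken from the ratio of counts to TPM, which reflects all genes of a library. With TMM normalization over the table, which assumes that most genes are unchanged, all log2 fold changes moved up by 0.07 at the median, and 4 of the 38 genes remained lower at an adjusted p under 0.05 (GNL3, NOP16, LYAR and GTPBP4), against 7.92% of the table. On the TMM scale 687 genes of the table lay below 0, and 87 of these passed as lower. The share of the 38 genes that passed was not above the share among all genes below 0. None of the 38 was higher on that scale, against 35% of the table. Over all 1099 genes, 371 were higher and 214 lower on the first scale, and 385 and 87 on the TMM scale. Leaving out vehicle replicate 2, vehicle replicate 3 or SSD replicate 2 left 5, 4 and 5 of the 38 genes past the threshold.

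**Figure D1:**
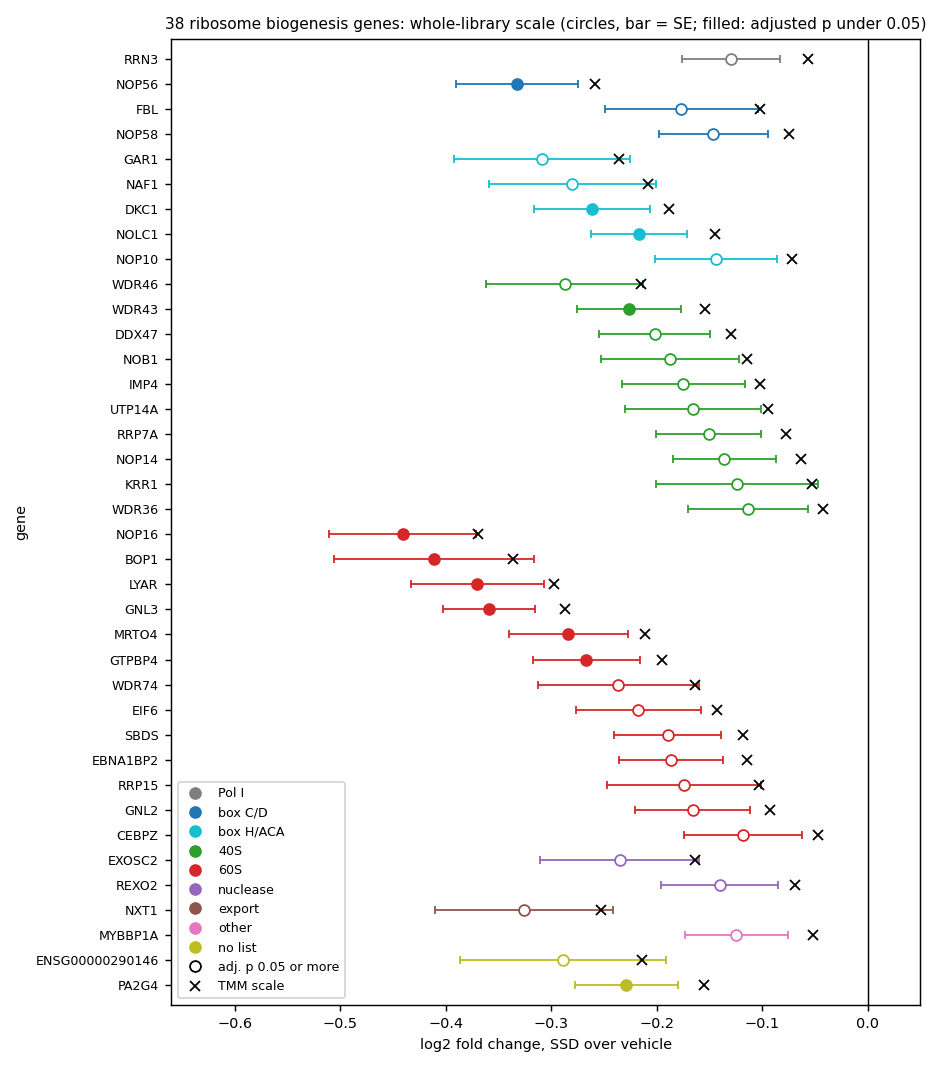
Log2 fold change of SSD over vehicle (horizontal axis) for the 38 genes (vertical axis), grouped by role in colour. Circles and bars are the value and standard error on the whole-library scale, filled where the adjusted p was under 0.05, and crosses are the TMM scale. All circles and crosses lie below 0, and 6 of the 11 filled circles are large subunit factors, the largest class (13 of the 38 genes).

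The level of the whole group was lower in each SSD library. Summed over the 38 genes, the TPM was 4715, 4876 and 4918 in the vehicle libraries and 4235, 4276 and 4095 in the SSD libraries. The mean sum was 4837 ± 107 TPM with vehicle and 4202 ± 95.3 TPM with SSD (SD, n = 3 each), so that it fell by 13.1%. This sum is given as a description only, since the table was selected on these libraries. An exact permutation test on it gave a two-sided p of 0.1. That is the smallest p that 3 libraries per group allow, so the test cannot decide. The share of all TPM that the whole table held was lower as well, at 32.3% to 33.1% in the vehicle libraries and 30.1% to 31.1% in the SSD libraries. Taken gene by gene, the median TPM in SSD replicates 1, 2 and 3 was 86.4%, 88.0% and 86.9% of the gene's vehicle mean. In SSD replicates 1, 2 and 3, 37, 36 and 36 of the 38 genes lay below their vehicle mean. In scaled counts, the median log2 deviation from the vehicle mean was -0.22 in each SSD library for the 38 genes. For the whole table it was -0.14, -0.13 and -0.09 in SSD replicates 1, 2 and 3. The 3 SSD libraries therefore gave close medians, although single genes differed between them: KRR1 was at 85.5 and 91.8 TPM in SSD replicates 1 and 2 and at 118 TPM in SSD replicate 3, above its vehicle libraries. In 28 of the 38 genes the SSD libraries were all lower in TPM than the lowest vehicle library. The same held for 486 of all 1099 table genes (44.2%), whichever way they moved, while 712 table genes lay below 0.

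**Figure D2:**
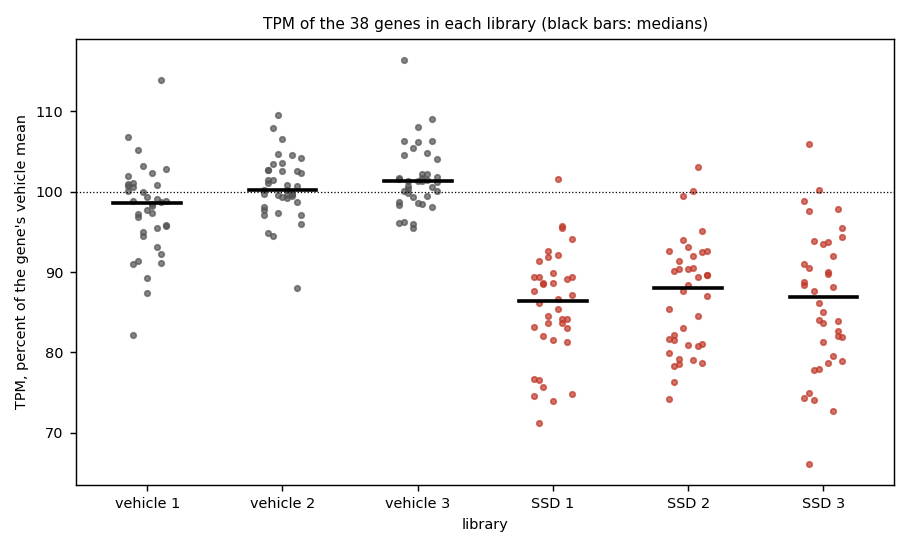
TPM of each of the 38 genes in each of the 6 libraries, as a percent of the gene's mean over the 3 vehicle libraries (vertical axis); dots are genes and black bars medians. The medians lie between 98.6% and 101% in the vehicle libraries and between 86.4% and 88.0% in the SSD libraries.

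Factors of the large subunit were the largest class, with 13 of the 38 genes. They held 6 of the 11 genes that were lower at an adjusted p under 0.05. These 6 were 46.2% of the class, against 19.5% of the table and 30.1% of the table genes below 0. The median log2 fold change of the 13 was -0.24. The largest falls were those of NOP16, BOP1, LYAR and GNL3. GNL3 (ENSG00000163938, chromosome 3, 52681156 to 52694492 on the plus strand; gene positions are those of GENCODE release 29 on GRCh38) encodes nucleostemin, a nucleolar GTPase of proliferating cells. It was at 225, 205 and 203 TPM in the vehicle libraries and at 157, 156 and 157 TPM in the SSD libraries. The SSD values differed by less than 1 TPM and all lay below the vehicle values. Its log2 fold change was -0.36 (edgeR adjusted p = 0.00202, SE 0.0439). NOP16 (ENSG00000048162, chromosome 5, minus strand, 176383938 to 176388975), a nucleolar protein of the large subunit precursor, was at 89.8, 91.2 and 85.5 TPM under vehicle. Under SSD it was at 63.2, 69.6 and 66.6 TPM, with no overlap. Its log2 fold change of -0.44 (edgeR adjusted p = 0.00527, SE 0.0696) was the lowest of the 38 genes. NOP16, which is among the 6, was taken by name alone and has none of the annotations of the rule. LYAR (ENSG00000145220, chromosome 4, minus strand, 4267701 to 4290169), a nucleolar zinc finger protein, had 62.4, 56.0 and 59.5 TPM with vehicle, against 44.9, 46.6 and 46.1 TPM with SSD. The groups were again apart, with a log2 fold change of -0.37 (edgeR adjusted p = 0.00712, SE 0.0631). GNL3, NOP16 and LYAR passed the threshold in all 16 other analyses, and no other gene of the 38 did. Exons of GNL3 overlap those of GLT8D1 on the opposite strand, and exons of NOP16 those of ARL10 and HIGD2A. LYAR has a named pseudogene copy, LYARP1. Exons of GTPBP4, the other gene that remained on the TMM scale, overlap IDI2 and AL359878.1 on the opposite strand. Reads of all these genes may therefore include those of a neighbour or copy.

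BOP1 (ENSG00000261236, chromosome 8, 144262102 to 144291370) forms the PeBoW complex with PES1 and WDR12, which were not analysed here. Its level was 34.6, 39.0 and 40.4 TPM with vehicle, against 32.7, 29 and 25.1 TPM with SSD. It had the largest standard error of the 11 genes, with a log2 fold change of -0.41 (edgeR adjusted p = 0.0272, SE 0.0947), and it did not pass on the TMM scale (adjusted p = 0.199) or without SSD replicate 2 or either of vehicle replicates 2 and 3. MRTO4 (ENSG00000053372, chromosome 1, 19251539 to 19260128) encodes an assembly factor related to the ribosomal stalk protein P0. Its values were 60.2, 61.0 and 62.6 TPM with vehicle, against 53.1, 48.4 and 48.2 TPM with SSD, with no overlap. The log2 fold change was -0.28 (edgeR adjusted p = 0.0129, SE 0.0563), and it passed neither on the TMM scale (adjusted p = 0.113) nor without any 1 of the same 3 libraries. GTPBP4 (ENSG00000107937, chromosome 10, 988019 to 1019936), a GTPase of the large subunit precursor, was the exception among the 11 in that its TPM overlapped. Vehicle libraries held 89.5, 109.2 and 108.8 TPM and SSD libraries 75.8, 90.5 and 83.3 TPM. In counts the groups did not overlap, and the log2 fold change was -0.27 (edgeR adjusted p = 0.0108, SE 0.0508), lost without vehicle replicate 2 or vehicle replicate 3.

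The other 7 large subunit factors did not pass. EIF6, which keeps the subunits apart, had 487 ± 17.7 TPM in vehicle libraries and 422 ± 36.9 TPM in SSD libraries (SD, n = 3 each), a log2 fold change of -0.22 (edgeR adjusted p = 0.0686). SBDS, mutated in Shwachman-Diamond syndrome, acts in the release of EIF6. It had 158 ± 1.99 and 139 ± 6.70 TPM (SD, n = 3 each), a log2 fold change of -0.19 (edgeR adjusted p = 0.061), and the annotation names a pseudogene copy that could share its reads. EBNA1BP2, WDR74, RRP15, GNL2 and CEBPZ lay between -0.24 and -0.12. CEBPZ had the smallest change of the large subunit factors.

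**Figure D3:**
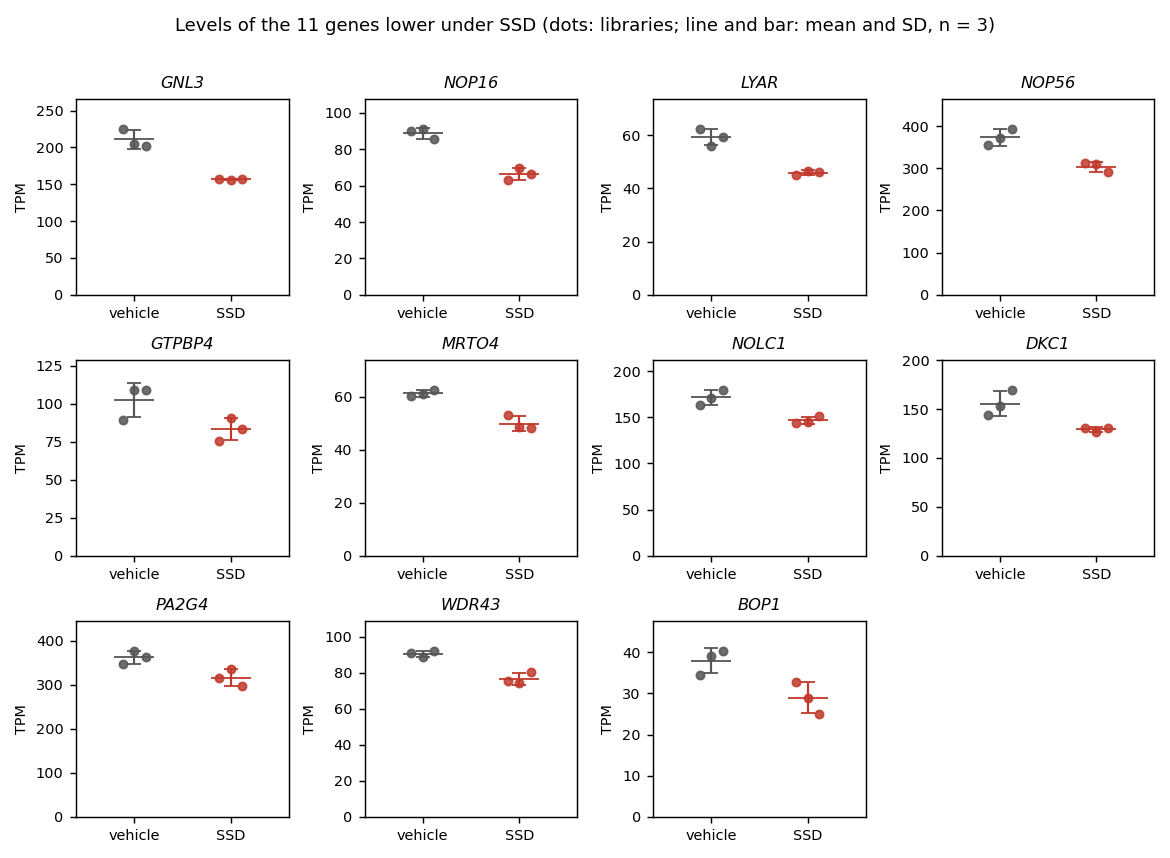
TPM (vertical axis) of the 11 genes with an adjusted p under 0.05, in vehicle and SSD libraries; dots are libraries, and the line and bar are the mean and SD (n = 3). Only in GTPBP4 does an SSD library (90.5 TPM) reach above a vehicle library (89.5 TPM).

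Among the snoRNP proteins, 3 of 8 were lower at an adjusted p under 0.05, and none on the TMM scale. Of all table genes, 19.5% were lower, and 7.92% on the TMM scale. Among the table genes below 0, 30.1% were lower. Box C/D snoRNPs methylate the ribose of the precursor RNA. Their core protein NOP56 (ENSG00000101361, chromosome 20, 2652145 to 2658393) was at 354, 371 and 393 TPM with vehicle, against 312, 310 and 291 TPM with SSD. No library overlapped, and the log2 fold change was -0.33 (edgeR adjusted p = 0.00804, SE 0.0581, and 0.066 on the TMM scale). Its partner NOP58 had 126 ± 4.55 and 114 ± 3.51 TPM (SD, n = 3 each), a log2 fold change of -0.15 (edgeR adjusted p = 0.224). FBL, the methyltransferase fibrillarin, ranged from 410 to 460 TPM under vehicle and from 350 to 453 TPM under SSD. FBL overlapped between the groups, at a log2 fold change of -0.18 (edgeR adjusted p = 0.404).

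Box H/ACA snoRNPs turn uridine into pseudouridine. DKC1 (ENSG00000130826, chromosome X, 154762742 to 154777689), the pseudouridine synthase dyskerin, was at 144, 154 and 170 TPM with vehicle, against 131.1, 126 and 130.7 TPM with SSD. The SSD libraries lay close together and below all vehicle libraries, with a log2 fold change of -0.26 (edgeR adjusted p = 0.0176, SE 0.0552). NOLC1 (ENSG00000166197, chromosome 10, 102152176 to 102163871), a chaperone of snoRNPs, was at 164, 171 and 180 TPM with vehicle, against 144, 145 and 151 TPM with SSD. Its log2 fold change was -0.22 (edgeR adjusted p = 0.017, SE 0.0454). DKC1 and NOLC1 did not pass on the TMM scale (adjusted p = 0.149 and 0.108), or without SSD replicate 2 or either of vehicle replicates 2 and 3. The dyskerin partner GAR1 had a log2 fold change of -0.31, the lowest of this class, and did not pass (edgeR adjusted p = 0.0639). One vehicle library of GAR1 was at 118 TPM and the other 2 were at 91.5 and 102 TPM. The assembly factor NAF1 lay at -0.28 (edgeR adjusted p = 0.0783) and NOP10 at -0.14 (adjusted p = 0.377).

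In the small subunit processome and the later steps of the small subunit, 10 genes were listed, all below 0 (median -0.17 on the log2 scale). Of these, 1 passed as lower (10%, against 19.5% of the table and 30.1% of the table genes below 0). The difference from the large subunit factors was not tested. WDR43 (ENSG00000163811, chromosome 2, 28894643 to 28948222), a subunit of the processome, was at 90.8, 89.0 and 92.2 TPM with vehicle, against 75.3, 74.1 and 80.5 TPM with SSD. Its groups did not overlap, and the log2 fold change was -0.23 (edgeR adjusted p = 0.0201, SE 0.0491). This call was lost on the TMM scale (adjusted p = 0.0681) and without any 1 library other than SSD replicate 3. WDR46 had the lowest value of the class at -0.29 (edgeR adjusted p = 0.0513), with 56.7 ± 5.49 and 46.5 ± 0.826 TPM (SD, n = 3 each). The RNA helicase DDX47 had 90.7 ± 2.71 and 78.1 ± 1.43 TPM (SD, n = 3 each), a log2 fold change of -0.20 (edgeR adjusted p = 0.0505). DDX47 thus missed the threshold narrowly. NOB1, the nuclease that makes the mature end of the small subunit RNA, overlapped between groups in TPM, at a log2 fold change of -0.19 (adjusted p = 0.212). IMP4, UTP14A, RRP7A, NOP14, KRR1 and WDR36 lay between -0.17 and -0.11. WDR36 and KRR1 were the 2 genes of the 38 whose groups overlapped both in TPM and in scaled counts. The other 36 did not overlap in scaled counts. Of all 1099 table genes, whichever way they moved, 52.3% had every SSD library below every vehicle library in scaled counts.

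The remaining classes were small. PA2G4 (ENSG00000170515, chromosome 12, 56104319 to 56113907), an ErbB3-binding protein that also associates with ribosomes, was at 347, 378 and 363 TPM with vehicle, against 316, 336 and 297 TPM with SSD. Its log2 fold change was -0.23 (edgeR adjusted p = 0.0187, SE 0.0489), lost on the TMM scale (adjusted p = 0.339) and without SSD replicate 2 or either of vehicle replicates 2 and 3. The annotation names 5 pseudogene copies of PA2G4 that could share its reads. NXT1, a cofactor of nuclear RNA export, fell short of the threshold with 49.99 ± 1.22 and 40.3 ± 3.66 TPM (SD, n = 3 each), a log2 fold change of -0.33 (edgeR adjusted p = 0.0505). RRN3, which brings RNA polymerase I to its promoter, had 69.6 ± 0.816 and 62.7 ± 1.55 TPM (SD, n = 3 each), a log2 fold change of -0.13 (adjusted p = 0.231). The nucleases EXOSC2 and REXO2, at -0.23 and -0.14, and the nucleolar protein MYBBP1A, at -0.12, did not pass either. A gene listed without a symbol (ENSG00000290146), described as EMG1-C1S and annotated with the methyltransferase EMG1, lay at -0.29 (edgeR adjusted p = 0.184).

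Genes of the same processes that the annotation rule did not take were read from lists of factors by role. The table held 31 of them, among them NPM1, NCL and SNU13, of which 30 were below 0. At an adjusted p under 0.05, 10 (32.3%) were lower and 1 higher, and 1 and 1 on the TMM scale. In the whole table, 19.5% were lower and 33.8% higher, and 7.92% and 35% on the TMM scale. Of the table genes below 0, 30.1% were lower. The lower ones of the 31 included CCDC86, RRP12, PPAN, NOP2 and DDX21, with log2 fold changes from -0.40 to -0.24. DDX21, a nucleolar helicase, was the one that also passed as lower on the TMM scale (edgeR adjusted p = 0.0288). NPM1 (nucleophosmin) and NCL (nucleolin), the abundant proteins of the nucleolus, had 2067 ± 22.2 and 783 ± 40.6 TPM in vehicle libraries, against 1908 ± 77.8 and 710 ± 15.7 TPM in SSD libraries (SD, n = 3 each). Neither passed, with log2 fold changes of -0.14 each (edgeR adjusted p = 0.113 and 0.145). The gene that rose was MTG1, a GTPase of the mitochondrial ribosome, with 34.8 ± 3.74 and 45.9 ± 2.48 TPM (SD, n = 3 each) and a log2 fold change of 0.36 (adjusted p = 0.0156). For comparison, 23 of the 52 cytosolic ribosomal protein genes of the table (44.2%) were lower and none was higher. Their median log2 fold change was -0.21, like that of the 38 genes. With TMM scaling, 8 ribosomal protein genes were lower, 48 lay below 0 and the median was -0.14.

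Promoter sequence, which the rule did not use, was searched for short motifs. RefSeq promoters on GRCh38, from 250 bases before to 50 bases after a transcript start, were matched by symbol for 33 of them, and a gene was counted if any of its listed promoters held the motif. CACGTG, the canonical E-box, is bound by Myc with its partner Max and by other basic helix-loop-helix factors such as USF1 and TFEB, and reads the same on both strands. It was present in 15 of the 33 genes (45.5%), in 15.4% of 872 table genes and in 10.9% of 15842 protein-coding genes. The related motif CACGCG, searched on both strands, was in 21.2% of the 33 genes and in 18.1% of protein-coding genes. The GC box GGGCGG, also on both strands, was in 63.6% and in 64.3%. CACGCG is called the variant E-box in the plot of motif shares. The shares were described and not tested.

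The place of the motif was described in the same way. Of 18 distinct CACGTG sites in the 15 genes, 11 (61.1%) began within the 50 bases from the start onwards and 7 within the first 20. Of 1972 sites in protein-coding genes 10.1% began within these 50 bases, and 10.96% of 146 sites in the other table genes. The sites below, each with 12 bases on either side and on the strand of the gene, are those of the 4 genes with the motif that were lower at an adjusted p under 0.05, followed by the other 4 that lie within the first 20 bases. Capitals mark the motif. It begins at base 7 from the start in GNL3 and FBL, at base 4 in WDR43 and GNL2, and at base 15 in MRTO4. In IMP4 and NOP14 it begins at base 16, and in LYAR 64 bases before the start, counting the start base as 1. The start meant is that of the listed promoter that holds the motif. GNL3, LYAR and IMP4 each have another listed promoter, with a start elsewhere, that does not hold it.
GNL3 (chr3:52686026-52686055, plus strand): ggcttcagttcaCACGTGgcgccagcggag
LYAR (chr4:4290068-4290097, minus strand): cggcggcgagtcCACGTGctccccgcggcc
MRTO4 (chr1:19251807-19251836, plus strand): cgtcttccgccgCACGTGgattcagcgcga
WDR43 (chr2:28894658-28894687, plus strand): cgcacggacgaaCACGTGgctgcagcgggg
FBL (chr19:39846356-39846385, minus strand): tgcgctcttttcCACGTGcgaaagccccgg
GNL2 (chr1:37595917-37595946, minus strand): gtacgtcgtgcaCACGTGgtccggcgtggt
IMP4 (chr2:130342900-130342929, plus strand): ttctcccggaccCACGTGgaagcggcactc
NOP14 (chr4:2963374-2963403, minus strand): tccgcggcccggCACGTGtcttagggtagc

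The size of the fall was set beside the motif, as a description with no test. Of the 15 genes with CACGTG, 4 were lower at an adjusted p under 0.05 and the median log2 fold change was -0.18. Of the 18 genes without it, NOP16 and NOP56 among them, 5 were lower and the median was -0.21. In the rest of the table, of 119 genes with CACGTG, 67 were below 0, 17 were lower and 51 higher at an adjusted p under 0.05, and of 720 genes without it, 464 were below 0, 132 were lower and 245 higher. With TMM scaling, 2 of the 15 and 2 of the 18 genes passed as lower. Of the 119 and 720 other table genes, 7 and 56 were lower and 52 and 254 higher on that scale. Since a match is only a run of letters, it does not show that a factor binds there in AGS cells.

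A second feature concerned small nucleolar RNAs, which are often cut from introns of genes for ribosomes and ribosome factors. In GENCODE release 29, 5 of 37 matched genes (13.5%) contained annotated snoRNA genes on their own strand: GNL3 (with SNORD19, SNORD19B and SNORD69), NOP56 (with SNORD56, SNORD57, SNORD86, SNORD110 and SNORA51), NOP58 (with SNORD11, SNORD11B and SNORD70), DKC1 (with SNORA36A and SNORA56) and WDR43 (with SNORD53, SNORD53B and SNORD92). The share was 30.8% of the table's ribosomal protein genes, 2.61% of its other genes and 1.37% of protein-coding genes. All but NOP58 of these 5 were lower at an adjusted p under 0.05, against 19.5% of the table and 30.1% of the table genes below 0. On the TMM scale 1 of them was (GNL3), against 7.92% of the table, or 87 of its 687 genes below 0. The snoRNAs themselves are not polyadenylated and were not measured. Exons of 19 of the 37 genes overlapped a gene on the opposite strand, and 8 genes had named pseudogene copies. Whether the counting used strand is not given in the sources used here, so that reads of these genes may include those of a neighbour or copy. The 11 genes with no overlap and no named copy had a median log2 fold change of -0.23. Of these 11, 4 were lower at an adjusted p under 0.05 (36.4%, against 19.5% of the table and 30.1% of the table genes below 0). None of the 11 passed as lower on the TMM scale.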

How the data were processed

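Polyadenylated RNA of 6 AGS libraries was sequenced (3 vehicle, 3 SSD). The authors deposited 1 table with estimated counts per gene, 33.5% of them not whole, and TPM, which the authors scaled over each whole library. Per the labels the genome build was GRCh38.p13. The aligner and counter are not given in the sources used here. The table also holds log2 fold changes and p-values by the authors, which enter no result, except that their adjusted p times rank over p gave the number of genes tested, 11289 (largest deposited p 0.00535).

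Counts were rounded and tested with edgeR 4.0.16 (quasi-likelihood, R 4.3.3) across 1099 genes, with library sizes from the median count to TPM ratio. Genes outside the table were taken as having larger p in the Benjamini-Hochberg adjustment. The script was tested on simulated data. Alternatives were TMM, DESeq2 1.42.0, limma 3.58.1 on log2-transformed TPM with a pseudocount of 1 or 0.1, other filters, a replicate block, each library left out and adjustment over the table alone. Genes were described library by library where the adjusted p was under 0.05, the others by ranges, with the extremes of each role and those near the threshold named. Members, role lists and motifs were chosen with earlier results of these data known.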

Additional observations from a re-analysis of the deposited data

How the results depend on the processing

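All 38 log2 fold changes stayed below 0 in all 16 alternatives, and GNL3, NOP16 and LYAR passed an adjusted p of 0.05 in each. The number of the 38 genes that were lower, 11, was 4 with TMM, 3 with DESeq2's size factors, 7 with the table total as library size, 18 with the DESeq2 Wald test, 3 with limma on log2(TPM + 1) and 3 on log2(TPM + 0.1), 35 with adjustment over the table alone and 4 to 16 with each library left out. No alternative made any of the 38 genes higher. The median log2 fold change of -0.21 was -0.14 with TMM, -0.12 with DESeq2's size factors and -0.16 with the table total, and -0.22 to -0.19 with each library left out; between libraries of a group it varied by 0.0186 (SD). Over the whole table, the 214 lower genes became 87, 86 and 126 on those 3 scales, 60 and 52 with limma at the 2 pseudocounts, 580 with adjustment over the table alone and 78 to 284 with each library left out. The 371 higher genes became 122 and 117 with limma and 169 to 382 with each library left out. The other filters on low counts gave the same 11 genes. Same-numbered libraries did not deviate together (correlations of -0.23, -0.01 and -0.03), and no library correlated best with its own number. With 3 libraries per group, these correlations cannot decide whether the numbers pair the samples. With the replicate number as a block, 4 of the 38 genes, 94 table genes lower and 194 higher passed. The causes of these differences were not tested. The 38 genes had means from 455 counts upward, and counting error was not separated from the spread between libraries.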

Other observations

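Some noncoding genes serve as hosts of snoRNAs in their introns. The table held 7 of the 21 names listed: SNHG15, SNHG17, SNHG5, SNHG32, SNHG16, SNHG29 and GAS5. All 7 lay below 0 on both scales, against 64.8% of the table on the whole-library scale. Their median was -0.20 (log2), against -0.14 over the table. By edgeR's quasi-likelihood test, 4 were lower at an adjusted p under 0.05. These were 57.1%, against 19.5% of the table and 30.1% of the table genes below 0. On the TMM scale 1 of the 7 was lower, against 7.92% of the table, or 87 of its 687 genes below 0. SNHG15 had the lowest value, falling from 83.6 ± 1.19 to 57.5 ± 3.47 TPM (SD, n = 3 each), a log2 fold change of -0.51 (edgeR adjusted p = 0.00246, and 0.00325 on the TMM scale). The abundant GAS5 overlapped between the groups, with 1321 ± 115 and 1252 ± 44.5 TPM (SD, n = 3 each) and a log2 fold change of -0.13 (edgeR adjusted p = 0.594). These lists were chosen with earlier results of these data known.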
